A study of Mus musculus with 8 samples.

Results

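Alveolar type 1 cells are the thin, flat cells that cover most of the gas exchange surface of the lung and lie against the capillaries, while the cuboidal type 2 cells beside them make surfactant and can give rise to type 1 cells. The 10 genes described here, Ager, Hopx, Aqp5, Pdpn, Cav1, Emp2, Akap5, Clic5, Vegfa and Igfbp2, are widely used markers of type 1 cells, although Cav1 is also strong in endothelium, Pdpn in lymphatic vessels and mesothelium, and Vegfa in other epithelium. They were taken as a list of names, and their probes were found on the array by RefSeq accession. All 10 genes had a probe well above background, with 20 probes in all, of 16571 named genes and 37116 probes that were measured.

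Total RNA came from the lungs of 8 female BALB/c mice, 2 per group, bought at 4 weeks of age, housed for 2 weeks and then fed freely for 70 days. The study also collected lavage fluid and lung sections, and whether these lungs were lavaged or used whole is not stated. NT mice had standard feed and no allergen. The other 6 mice were sensitized by intraperitoneal ovalbumin (OVA) with aluminum oxide gel and challenged with inhaled OVA until the day before collection. Of these, Ctrl-F mice had standard feed, Cap-F mice had feed with carbonate apatite particles that carried no oligodeoxynucleotide, and ODNcap-F mice had feed with particles that carried a CpG-oligodeoxynucleotide. The comparison of Ctrl-F with NT asks what the OVA model changed, and comparisons among the OVA groups ask what the feeds changed. Cap-F and ODNcap-F differ from NT in both allergen and feed. No mice had particle feed without allergen, so the parts of allergen and feed cannot be told apart there. Since each OVA group was compared with the same 2 NT mice, the comparisons with NT are not independent of each other.

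Each mouse was measured on 1 single-color array, and values are log2 intensities after quantile normalization over the 8 arrays. Levels of different genes come from different probes and are not compared with each other. Of all probes, 61.3% to 65.0% exceeded background clearly on an array, no spot was saturated, and the correlation between the mice of a group lay between 0.994 and 0.996. Arrays of mice on standard feed lay in one row of the slide and those of the particle feeds in the other, so row and group cannot be told apart in comparisons across rows. Exact permutation of 2 mice against 2 gives no two-sided p below 0.333, so p-values come from limma, which shares the spread over all 8 arrays and the probes. In RNA of lung tissue, fewer cells of a type and less RNA per cell cannot be told apart.

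RefSeq promoter windows (GRCm38.p6) were searched for short motifs because the members moved together, and 4 windows of 250 bases before the start site are shown: those of Hopx, Aqp5 and Vegfa, which fell strongly, and that of Pdpn, which fell least. Motif letters are in capitals. They mark the HIF core ACGTG, the SP/KLF box GGGCGG and the GATA core AGATAA, read on either strand, and where ACGTG and its reverse CACGT overlap the run CACGTG is in capitals. The windows are chr5:77115124-77115373 on the minus strand for Hopx, chr15:99590778-99591027 on the plus strand for Aqp5, chr17:46032378-46032627 on the minus strand for Vegfa and chr4:143299565-143299814 on the minus strand for Pdpn.
Hopx: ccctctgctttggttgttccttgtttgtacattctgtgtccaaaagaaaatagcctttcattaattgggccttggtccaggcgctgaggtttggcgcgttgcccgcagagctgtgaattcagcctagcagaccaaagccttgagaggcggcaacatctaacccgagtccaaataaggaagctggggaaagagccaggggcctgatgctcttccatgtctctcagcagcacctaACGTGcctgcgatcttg
Aqp5: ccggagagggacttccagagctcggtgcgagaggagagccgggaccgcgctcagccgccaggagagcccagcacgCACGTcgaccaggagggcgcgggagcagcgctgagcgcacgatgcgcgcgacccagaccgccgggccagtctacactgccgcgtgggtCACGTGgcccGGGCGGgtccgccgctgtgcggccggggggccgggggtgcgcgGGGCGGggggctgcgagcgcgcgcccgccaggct
Vegfa: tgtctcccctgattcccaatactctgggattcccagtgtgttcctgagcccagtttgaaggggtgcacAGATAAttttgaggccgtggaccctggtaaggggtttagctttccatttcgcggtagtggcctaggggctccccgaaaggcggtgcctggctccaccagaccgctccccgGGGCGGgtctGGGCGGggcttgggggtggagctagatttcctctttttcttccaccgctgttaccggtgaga
Pdpn: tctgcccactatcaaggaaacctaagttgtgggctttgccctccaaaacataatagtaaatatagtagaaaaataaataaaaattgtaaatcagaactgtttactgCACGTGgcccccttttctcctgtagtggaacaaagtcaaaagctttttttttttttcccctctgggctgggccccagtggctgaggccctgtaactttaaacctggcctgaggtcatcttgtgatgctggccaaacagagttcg

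The base composition of these windows differed widely. GC made up 78.4% of the Aqp5 window, which holds 38 CG pairs, and 43.2% of the Pdpn window, which holds 2, against a median of 52.4% and 6 CG pairs over all windows. Over the 10 genes, which have 14 windows in the table, the SP/KLF box was found for 7 genes in 8 windows and the HIF core for 6 genes in 7 windows. These letters occur in 32.7% and 16.6% of all 32851 windows. The HIF core lies 17 bases before the start of Hopx. Another window of Hopx and another of Vegfa, which are not shown, hold the HIF core too. The windows of Akap5 and Clic5, which fell more than Aqp5 in Ctrl-F, are not shown. Of the motifs searched, they hold only the SP/KLF box. The GATA core was found for 1 gene, Vegfa, 182 bases before the start, and is present in 9.99% of all windows. The TEAD core GGAATG and the NKX2-1 core CAAGTG were found for 0 of the 10 genes, against 12.6% and 11.6% of all windows. A match of letters is a description of the sequence and not a binding site.

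All 10 genes were lower in the lungs of OVA mice than in NT lungs, and in each gene all 6 OVA mice lay below both NT mice. That pattern held for 39.6% of all probes measured, so complete separation from NT was common on these arrays. The gap between the NT mice and the nearest OVA mouse exceeded the largest gap between mice of a group for 10 of 10 genes, beside 24.1% of all probes. In Ctrl-F, 10 of the 10 genes fell at a Benjamini-Hochberg adjusted p under 0.05 over all probes, beside 34.5% of all probes called lower. Of these, 8 fell more than 2-fold, beside 11.7% of all probes, and the exceptions were Ager and Pdpn. The median log2 difference of the 10 genes between Ctrl-F and NT was -1.52, and the median over all probes was -0.096.

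**Figure D1:**
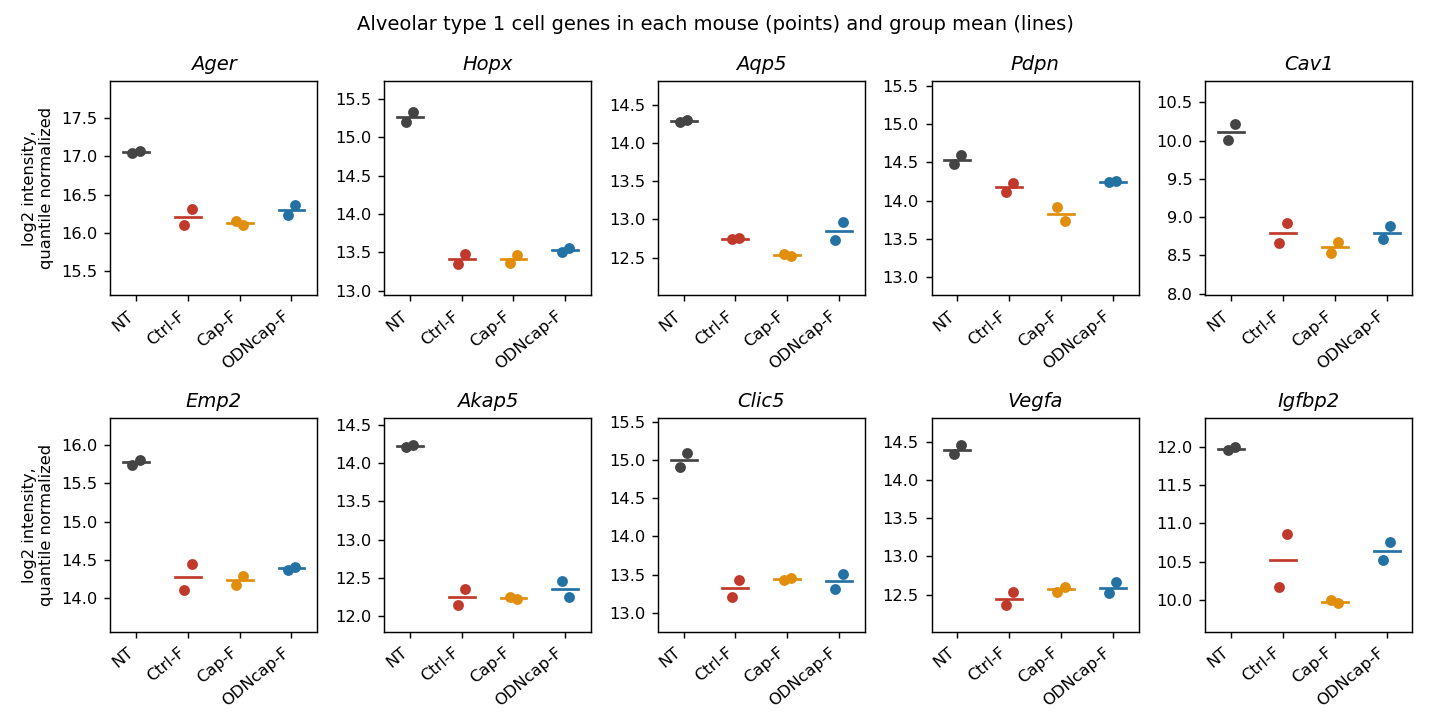
Log2 intensity of the brightest probe of each gene in every mouse (points) with the group mean (line), for 2 mice in each of the 4 groups; each panel spans the same range of log2 units around its own center. All 6 OVA mice lie below both NT mice in all 10 panels, and the step is smallest for Pdpn.

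Vegfa encodes the growth factor that type 1 cells supply to the capillary endothelium. Its log2 level was 14.33 and 14.46 for the NT mice, 12.37 and 12.53 for Ctrl-F, 12.54 and 12.60 for Cap-F, and 12.52 and 12.67 for ODNcap-F. The OVA groups overlapped in part and sat far below NT. In limma Vegfa fell by 1.95 on the log2 scale in Ctrl-F (SE 0.096, adjusted p = 4.2e-05), a 3.85-fold decrease.

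Igfbp2 encodes a secreted protein that binds insulin-like growth factors, and marks mature type 1 cells. The NT mice had log2 levels of 11.96 and 12.00, the Ctrl-F mice 10.17 and 10.86, the Cap-F mice 9.995 and 9.96, and the ODNcap-F mice 10.53 and 10.76. The gap of 0.69 between the Ctrl-F mice was the largest within any group of the 10 genes. Its fall in Ctrl-F was -1.46 on the log2 scale (SE 0.218, adjusted p = 0.00198).

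Ager encodes RAGE, a receptor of the basal membrane of type 1 cells. Its brightest probe read 17.04 and 17.06 for NT, 16.10 and 16.32 for Ctrl-F, 16.16 and 16.11 for Cap-F, and 16.23 and 16.37 for ODNcap-F. The groups of OVA mice lay close together, and the log2 difference of Ctrl-F from NT was -0.84 (SE 0.096, adjusted p = 0.000688), a 1.79-fold decrease. Near the top of the scale, 74 probes had an NT level within 0.5 log2 units of this probe, and 9 of them (12.2%) fell more than 2-fold in Ctrl-F. Ager has 5 probes, and the dimmer ones differed in size of change. A pair with mean NT levels of 15.65 and 15.43 fell by 1.39 and 1.32, while the probe of a noncoding Ager transcript (NR_073173), at an NT mean of 9.26, changed by -0.81.

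Hopx encodes a small homeodomain protein that does not bind DNA and marks type 1 cells from early in their differentiation. Its levels were 15.20 and 15.33 for NT, 13.35 and 13.48 for Ctrl-F, 13.37 and 13.47 for Cap-F, and 13.50 and 13.56 for ODNcap-F. Mice of a group differed by 0.14 at most, and the fall in Ctrl-F was 3.60-fold (log2 difference -1.85, SE 0.087, adjusted p = 3.6e-05), the smallest adjusted p of the 10 genes. Akap5, an anchoring protein that holds protein kinase A near the membrane, had the largest fall in Ctrl-F. Its levels were 14.21 and 14.24 for NT, 12.15 and 12.35 for Ctrl-F, 12.26 and 12.23 for Cap-F, and 12.46 and 12.25 for ODNcap-F. The log2 difference of Ctrl-F from NT was -1.97 (SE 0.104, adjusted p = 5.08e-05), a 3.92-fold decrease.

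The genes of the cell surface and cortex fell as well, with Pdpn apart from the rest. Aqp5, the water channel of the apical membrane, read 14.28 and 14.29 for NT, 12.74 and 12.75 for Ctrl-F, 12.55 and 12.52 for Cap-F, and 12.74 and 12.97 for ODNcap-F. Its log2 difference in Ctrl-F was -1.54 (SE 0.090, adjusted p = 7.14e-05), and both its probes fell by a similar amount (-1.54 and -1.58). Emp2, a tetraspan membrane protein, read 15.74 and 15.81 in NT and 14.11 and 14.45 in Ctrl-F, with 14.18 and 14.29 in Cap-F and 14.37 and 14.41 in ODNcap-F. In Ctrl-F it fell by 1.495 on the log2 scale (SE 0.121, adjusted p = 0.000202). Clic5, which links the membrane to the actin cortex, read 14.90 and 15.09 for NT, 13.21 and 13.44 for Ctrl-F, 13.43 and 13.46 for Cap-F, and 13.32 and 13.51 for ODNcap-F. Its fall in Ctrl-F was 3.18-fold (log2 difference -1.67, SE 0.116, adjusted p = 0.000121).

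Cav1 encodes caveolin, the membrane protein of caveolae, which are dense in type 1 cells and in endothelium. Its levels were 10.01 and 10.22 for NT, 8.67 and 8.92 for Ctrl-F, 8.54 and 8.68 for Cap-F, and 8.71 and 8.89 for ODNcap-F, so Ctrl-F overlapped the other OVA groups, both ODNcap-F mice lay above both Cap-F mice, and all 6 OVA mice lay below NT. Its log2 difference in Ctrl-F was -1.32 (SE 0.130, adjusted p = 0.000394), and its dimmer probe gave -1.46. On the dimmer probe ODNcap-F and Cap-F overlapped (difference 0.0041).

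Pdpn, a mucin-type glycoprotein of the type 1 cell surface, changed least. The NT mice had log2 levels of 14.48 and 14.59, the Ctrl-F mice 14.12 and 14.23, the Cap-F mice 13.91 and 13.73, and the ODNcap-F mice 14.24 and 14.26. Both Cap-F mice lay below the other OVA mice. The log2 difference from NT was -0.36 in Ctrl-F (adjusted p = 0.0159), -0.71 in Cap-F (adjusted p = 0.00127) and -0.29 in ODNcap-F (adjusted p = 0.0373). When each array was scaled to its 75th percentile instead, the difference was -0.068 in Ctrl-F (adjusted p = 0.564) and -0.019 in ODNcap-F (adjusted p = 0.876), so that in these groups the fall of Pdpn depends on the scaling. The call in Ctrl-F was lost without NT mouse 2 (adjusted p = 0.0838) or Ctrl-F mouse 1 (0.0807), and that in ODNcap-F without any 1 of the NT or ODNcap-F mice (0.0621 to 0.164).

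**Figure D2:**
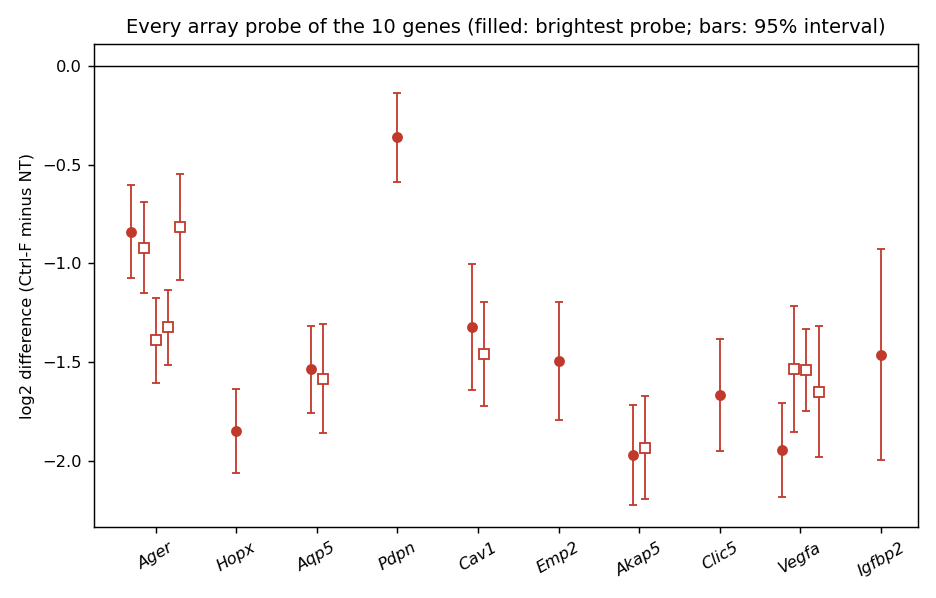
Log2 difference between Ctrl-F and NT (y axis) for each of the 20 array probes of the 10 genes (x axis), with 95% intervals from limma; filled circles are the brightest probes and open squares the others. All 20 lie below 0, and the 5 Ager probes run from -0.81 to -1.39.

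All 20 probes of the 10 genes were called lower than NT in all 3 OVA groups. Probes of one gene share its transcripts and are not independent measurements. The 4 Vegfa probes fell by 1.54 to 1.95 in Ctrl-F, and the Akap5 probes by 1.97 and 1.93.

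In Cap-F, 10 of the 10 genes fell, beside 31.9% of all probes, and 8 fell more than 2-fold, beside 9.59% of all probes. The median log2 difference was -1.65, with a median over all probes of -0.10. In ODNcap-F, 10 of the 10 genes fell, beside 33.8% of all probes, and again 8 more than 2-fold, beside 10.4%, with a median of -1.41 and a median over all probes of -0.11. Igfbp2 had the largest difference from NT in Cap-F (-2.00) and one of -1.34 in ODNcap-F. Vegfa stood at -1.82 and -1.80, Akap5 at -1.98 and -1.87, and Hopx at -1.85 and -1.73 in Cap-F and ODNcap-F. The remaining genes lay between -1.75 (Aqp5) and -0.71 (Pdpn) in Cap-F and between -1.58 (Clic5) and -0.29 (Pdpn) in ODNcap-F.

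**Figure D3:**
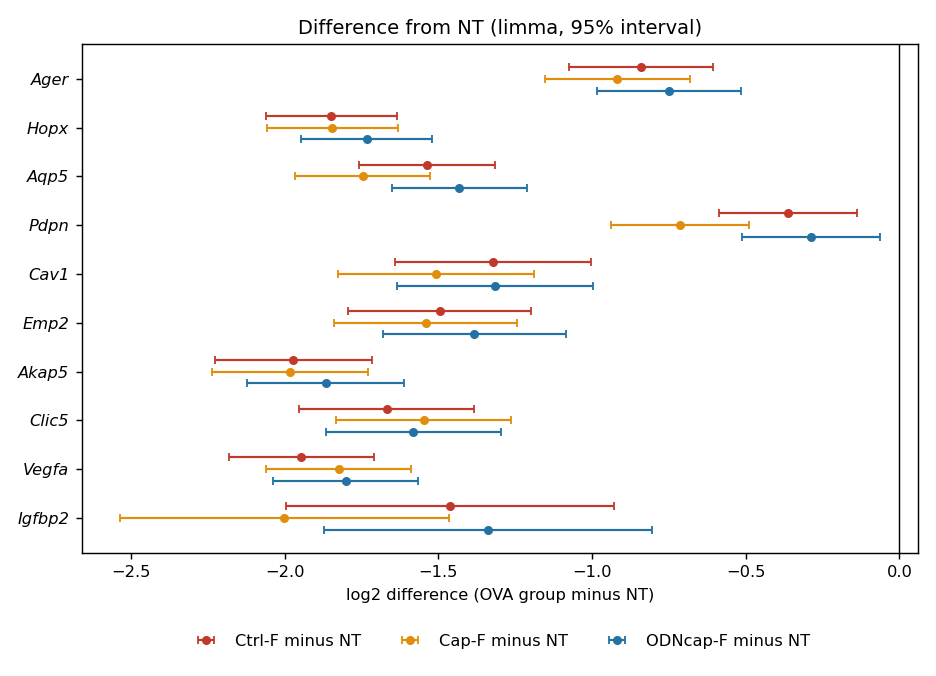
Log2 difference from NT (x axis) of each gene in the 3 OVA groups, with 95% intervals from limma over 8 arrays. All 30 intervals lie below 0, nearest to it for Pdpn in ODNcap-F (-0.51 to -0.062).

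In limma no member passed the adjusted p in any comparison among the 3 OVA groups. Between Cap-F and Ctrl-F the limma call rate over all probes was 0.00269% and 0 of 10 genes were called, the adjusted p being at least 0.192. Before adjustment limma gave 2 lower with p under 0.05, beside 8.1% of all probes: Pdpn (-0.35, adjusted p = 0.192) and Igfbp2 (-0.54, adjusted p = 0.305). The local-pooled-error test called 0, beside 1.29% of all probes. Between ODNcap-F and Ctrl-F the rate was 0% of all probes, and 0 of 10 genes were called, the adjusted p being at least 0.814. There were also 0 at an unadjusted p under 0.05, beside 6.73% of all probes, and 0 by the local-pooled-error test, beside 0.725%. Between ODNcap-F and Cap-F it was 0.00269%, and 0 of 10 genes were called, the adjusted p being at least 0.234. Before adjustment 3 passed in limma with higher values in ODNcap-F, beside 6.09% of all probes: Igfbp2 (0.66, adjusted p = 0.326), Pdpn (0.43, adjusted p = 0.234) and Aqp5 (0.32, adjusted p = 0.285). The local-pooled-error test called 1 of them higher, Igfbp2 (adjusted p = 0.0312), beside 0.528% of all probes.

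In some genes the mice of OVA groups did not overlap, which was also common over all probes. By the brightest probe of each gene, both ODNcap-F mice lay above both Cap-F mice in 7 of 10 genes, beside 21.3% of all probes. Akap5, Clic5 and Vegfa overlapped. Some dimmer probes differed: that of Cav1 overlapped (0.0041), and a dimmer Vegfa probe lay higher without overlap (0.25). Both ODNcap-F mice lay above both Ctrl-F mice in 2 genes, Hopx and Pdpn, near the 16.2% of all probes. Dimmer probes of Ager (0.11) and Aqp5 (0.16) also lay above without overlap there. Both Cap-F mice lay below both Ctrl-F mice in 3 genes, Aqp5, Pdpn and Igfbp2, near the 27.1% of all probes, and above them in 1, Vegfa, beside 24.1%. The dimmer Vegfa probes were divided, at 0.22 (above, no overlap), -0.17 (below, no overlap) and -0.0074 (overlap). The probe of the noncoding Ager transcript lay below without overlap (-0.15). The median of the 10 genes was 0.16 between ODNcap-F and Cap-F, 0.11 between ODNcap-F and Ctrl-F, and -0.062 between Cap-F and Ctrl-F. Over the 10 genes the 95% intervals reached from -0.41 to 0.66 between ODNcap-F and Ctrl-F, so a difference of 2-fold between these feeds lay outside every interval. Between Cap-F and Ctrl-F they reached from -1.07 to 0.40, and between ODNcap-F and Cap-F from -0.32 to 1.198, the outer bounds being those of Igfbp2 except for 0.40 and -0.32, which belong to Clic5.

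**Figure D4:**
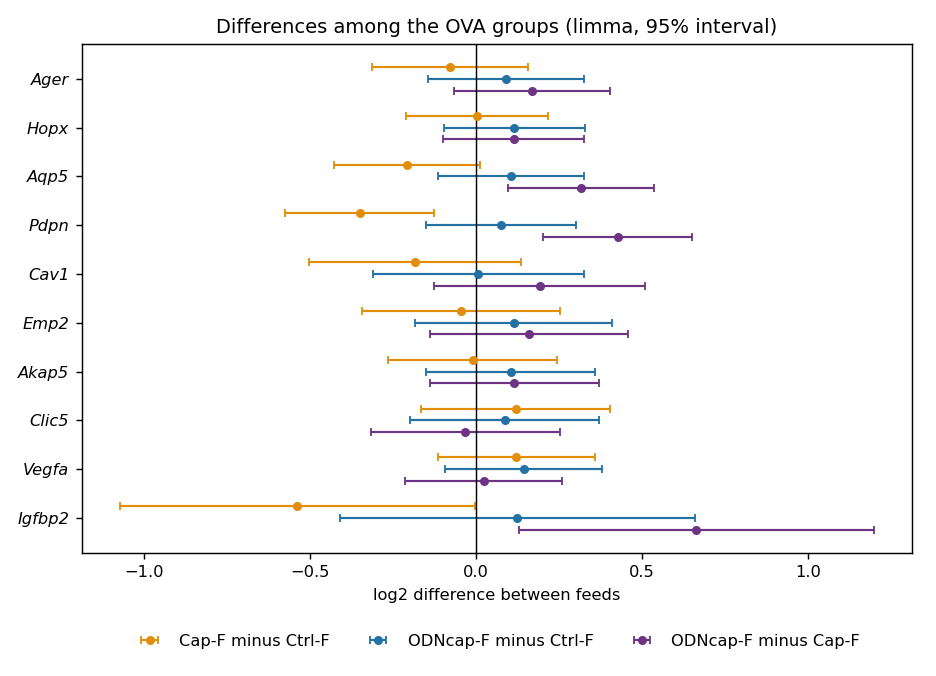
Log2 difference between OVA groups (x axis) of each gene, with 95% intervals from limma over 8 arrays. Most intervals include 0; those of Pdpn (0.20 to 0.65), Aqp5 (0.095 to 0.54) and Igfbp2 (0.13 to 1.198) between ODNcap-F and Cap-F do not, nor do those of Pdpn and Igfbp2 between Cap-F and Ctrl-F, and no gene passed the adjusted p.

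Further genes with high expression in type 1 cells moved the same way. Of 12 listed, 10 were measured and 10 fell in each of the 3 OVA groups, with a median log2 difference of -1.29 in Ctrl-F. Beside these counts and those of the regulators below, limma called 34.5% (Ctrl-F), 31.9% (Cap-F) and 33.8% (ODNcap-F) of all probes lower. Timp3, an inhibitor of metalloproteinases, went from 15.66 and 15.68 in NT to 13.65 and 13.90 in Ctrl-F (-1.89, adjusted p = 7.36e-05 in limma). Sec14l3, a lipid-binding protein, fell by 1.66, Lmo7, a protein of cell junctions, by 1.64 and Scnn1g, a subunit of the epithelial sodium channel, by 1.54. The transcriptional regulators of the alveolar epithelium and targets of YAP and TAZ also fell in Ctrl-F (10 of 10, median -1.04). Tead1 (-1.42) and Yap1 (-1.30) fell most. In Cap-F 9 of 10 were called lower and in ODNcap-F 7 of 10. Each comparison among the OVA groups called 0 of 10, beside 0% to 0.00269% of all probes. With so few calls over all probes, this cannot show whether the feeds differed in these genes. Genes of cells in transition from type 2 to type 1 were divided in Ctrl-F, with 3 of 12 higher and 4 lower, near the shares of all probes (26.5% higher and 34.5% lower). Lgals3, a galectin that macrophages also make, rose by 2.09 and Cldn4, a tight junction protein, by 1.62, whereas Krt7 and Krt19, keratins of simple epithelium, fell by 0.78 and 0.70. Krt19 also stands in the mesothelial list. With scaling to the 75th percentile 5 of the 12 were higher and 2 lower, and the shares of all probes were not counted under that scaling.

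Partners of individual members were described next. Over all probes, the share called lower than NT was 34.5% (Ctrl-F), 31.9% (Cap-F) and 33.8% (ODNcap-F). The share called higher was 26.5% for Ctrl-F. The coat proteins of caveolae, which work with Cav1, fell in 7 of 7 in each of the 3 OVA groups, with a median of -1.23 in Ctrl-F, led by Cavin2 (-2.18). The receptors of Vegfa and genes of the capillary cells that lie against type 1 cells fell in 7 of 7 in all 3 OVA groups, with a median of -1.51 in Ctrl-F. Ednrb, an endothelin receptor of these cells, fell by 1.90, and the Vegfa receptors Flt1 and Kdr by 1.77 and 1.51. Among 9 measured genes of the insulin-like growth factor axis, 1 rose and 6 fell in Ctrl-F. The one that rose was Igf1, from 7.99 and 7.77 in NT to 13.004 and 13.02 in Ctrl-F (5.13, adjusted p = 8.25e-06 in limma), and Igfbp6 and Igfbp3 fell by 2.37 and 2.29.

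The other aquaporins did not share one direction in Ctrl-F. Aqp9 and Aqp3, channels that also pass glycerol, rose by 3.18 and 2.43, and Aqp4 and Aqp1, water channels of airway epithelium and of endothelium, fell by 1.67 and 1.43. Among 6 genes of RAGE ligands, 3 rose and 2 fell in Ctrl-F, beside 26.5% of all probes called higher and 34.5% called lower. S100a4 rose by 1.67 and S100b by 1.14, while S100a9 (-0.91, adjusted p = 0.0412) and S100a6 (-0.32, adjusted p = 0.0247) fell in limma. With scaling to the 75th percentile 3 of the 6 rose and 0 fell, without shares of all probes under that scaling to set beside them.

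Markers of other cells in the lung moved as well, and their part in these results was not tested. Beside the counts below, 34.5% of all probes were called lower and 26.5% higher in Ctrl-F. The mean log2 level of the type 1 list was 14.21 and 14.31 in the NT mice and lay between 12.69 and 12.96 in the OVA mice. That of 10 type 2 markers was 14.39 and 14.37 in NT and lay between 13.94 and 14.10 in the OVA mice, with 6 of 10 lower and 1 higher in Ctrl-F and a median of -0.44. With scaling to the 75th percentile 3 of these were lower and 2 higher, at a median of -0.20. The shares of all probes above belong to quantile normalization only. Sftpc, their brightest gene, which encodes surfactant protein C, took only the values 17.60 and 17.64 over the 8 arrays. At these top ranks quantile normalization sets the value, so Sftpc cannot show a change here. Changes of the lists from their NT means were taken under quantile normalization only, with Sftpc left in the type 2 list. The type 1 change minus the type 2 change lay between -1.24 and -0.88 log2 units in the 6 OVA mice. Against the markers of vascular endothelium, which fell in 10 of 10 (median -1.24), that difference lay between -0.44 and -0.13.

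Leukocyte markers went the other way. Their mean log2 level over 9 genes was 10.87 and 10.51 in NT and lay between 11.69 and 12.13 in the OVA mice, with 7 of 9 higher and 2 lower in Ctrl-F. Itgax, their brightest gene and an integrin of alveolar macrophages and dendritic cells, rose by 3.37, whereas Lyz2 and Itgam, a lysozyme and an integrin of myeloid cells, fell by 1.31 and 0.77. Over all probes, 26.5% were called higher and 34.5% lower in Ctrl-F than in NT. Mucous cell markers rose in 5 of 5, and their mean level was 6.53 and 7.34 in NT and between 12.20 and 13.62 in the OVA mice. Lower in Ctrl-F were 4 of 5 club cell, 4 of 5 ciliated cell, 4 of 6 fibroblast and 3 of 5 mesothelial markers. For fibroblasts, 1 marker was higher. Near the shares of all probes were the 2 of 5 lymphatic markers called lower and the 1 of 3 basal cell markers called higher. Cardiomyocyte markers fell in 6 of 8 and adipocyte markers in 4 of 5 in Ctrl-F. The mean level of the cardiomyocyte list in mouse 2 minus mouse 1 was -0.79 for NT, 0.45 for Ctrl-F, 2.09 for Cap-F and 0.64 for ODNcap-F. That of the type 1 list was 0.094, 0.23, 0.012 and 0.10 log2 units in the same order of groups.

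**Figure D5:**
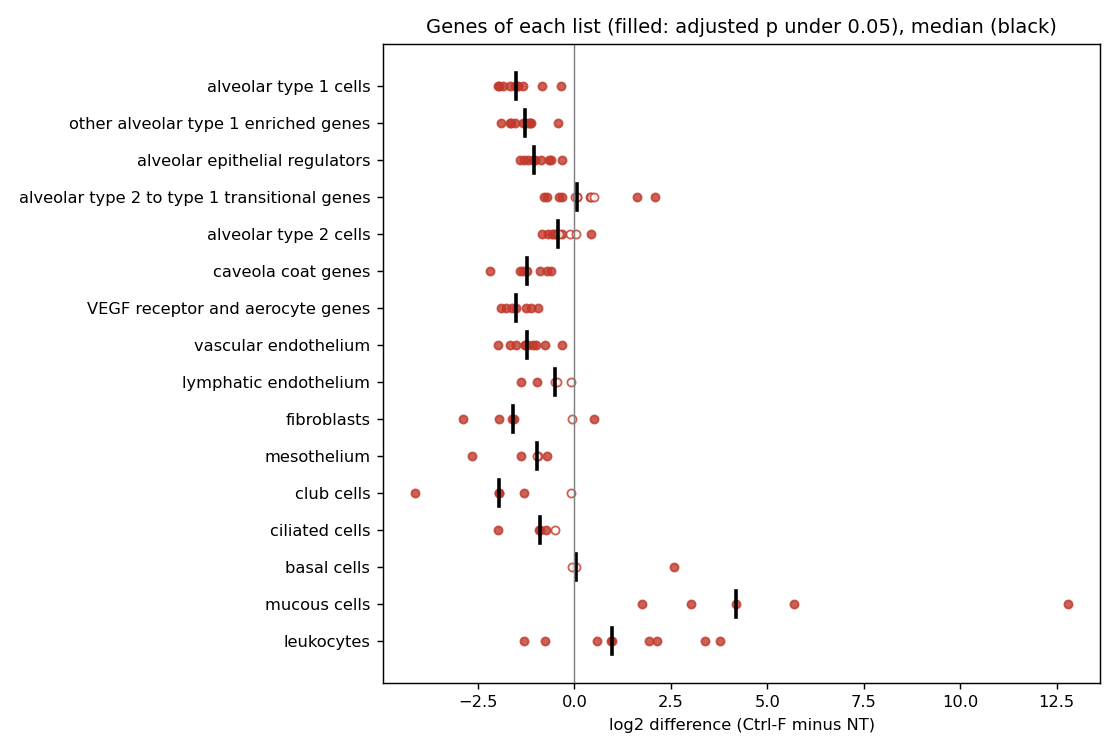
Log2 difference between Ctrl-F and NT (x axis) of each measured gene (points) in the type 1 list and in 15 other lists (y axis), filled where the adjusted p in limma was under 0.05, with the median of each list as a black bar. The type 1 genes lie entirely below 0 with a median of -1.52, type 2 markers lie nearer 0 with a median of -0.44, and leukocyte markers lie mostly above 0. The point farthest right is Clca1, at a log2 level of 2.65 in NT mouse 1, under the lowest level well above background there (3.64).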

How the data were processed

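Lung RNA of 8 mice was hybridized to Agilent SurePrint G3 Mouse 8x60K arrays. The authors deposited, per array, the background-subtracted intensity of each spot from Agilent Feature Extraction 11.0 (submitters' processing notes), and a matrix of log2 values for 32312 probes, log-transformed and quantile normalized; its filter is not described. The deposited matrix holds all 20 probes of the 10 genes, and values recomputed here differed from it by a median of 0.0024 log2 units.

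Control spots and 792 flagged spot values were left out. Intensities were log2 transformed, averaged per probe (56605 probes) and quantile normalized. A probe was kept if both arrays of some group flagged it as well above background (37116 probes). Names came from RefSeq accessions, which matched 65.4% of kept probes, and the brightest kept probe stood for a gene. A single limma model (version 3.58.1, in R 4.3.3 with data.table version 1.17.8 and statmod 1.5.0) was fitted to the 8 arrays with 4 groups and no covariates, with 4 residual degrees of freedom, and calls used a Benjamini-Hochberg adjusted p under 0.05 over all kept probes. The methods of the study name the local-pooled-error test, which was rebuilt here as an alternative. With 2 mice per group the number of arrays limits the precision. The limma p-values weigh a difference of group means against the spread between mice within groups, pooled over the 4 groups and shared over probes.

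The 10 genes, the other lists and the motifs were chosen with earlier results of these data known. Named were the 10 genes, and of each pathway list up to 4 called genes with the largest change in Ctrl-F, with the brightest gene of the marker lists; Lyz2 and Itgam were named after their values were seen. No probe was matched to Rtkn2, Gramd2a or Ly6g by accession, and Igfbp1 and Krt5 did not pass the filter. Alternatives were scaling to the 75th percentile, normexp background correction (offset 50, on median signals), the deposited table, no filter or a stricter one, the replicate number as a block, 2-group fits, an intensity trend, the mean of a gene's probes, the local-pooled-error test, an unadjusted p, and each array left out in turn.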

Additional observations from a re-analysis of the deposited data

How the results depend on the processing

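Against NT, all 10 genes stayed lower under every alternative run, and only Pdpn lost its call. Beside the scaling and the left-out mice given above, the call of Pdpn in ODNcap-F was lost in a fit of the 2 groups alone (adjusted p = 0.0528) and in the local-pooled-error test (0.0914). With 1 mouse left out, limma called 9 to 10 genes for Ctrl-F and ODNcap-F, 10 for Cap-F and 0 in the comparisons among OVA groups. Scaling to the 75th percentile moved the median to -1.35 in Ctrl-F and -1.29 in ODNcap-F, and that of all probes to -0.113 and -0.126. With 1 mouse left out the median in Ctrl-F ranged from -1.72 (without Ctrl-F mouse 2) to -1.43 (without Ctrl-F mouse 1). The cause was not tested.

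The correlation over probes of the differences between mice 2 and 1 of the groups lay between -0.012 and 0.161. It was highest between Cap-F and ODNcap-F, and cannot settle whether the replicate numbers paired the mice. With the replicate number as a block, 10 genes were called against NT for Ctrl-F, 10 for Cap-F and 9 for ODNcap-F, where Pdpn was lost (adjusted p = 0.0572).

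Among the OVA groups, 8 of 10 genes kept their sign under every alternative between ODNcap-F and Cap-F. The number was 6 of 10 between Cap-F and Ctrl-F, and 3 of 10 between ODNcap-F and Ctrl-F. Every alternative reused these arrays, and kept signs were not counted over all probes. Between ODNcap-F and Cap-F, leaving out 1 mouse kept the median between 0.12 and 0.21, Aqp5 between 0.20 and 0.43, Pdpn between 0.34 and 0.52 and Igfbp2 between 0.55 and 0.78. The differences of Aqp5, Pdpn and Igfbp2 between Cap-F and Ctrl-F also stayed below 0. The number called, given above beside the shares of all probes, rose from 0 to 2 (Cap-F against Ctrl-F) and 3 (ODNcap-F against Cap-F) at an unadjusted p, and to 1 in the local-pooled-error test (ODNcap-F against Cap-F). Leaving out 1 mouse, the median ranged from -0.20 (without Ctrl-F mouse 1) to 0.050 (without Ctrl-F mouse 2) for Cap-F against Ctrl-F, and from -0.0072 to 0.20 without the same mice for ODNcap-F against Ctrl-F. Signs turned for Hopx in Cap-F against Ctrl-F with scaling (-0.10) and normexp (-0.0033), for Clic5 in ODNcap-F against Cap-F with the same (0.052 and 0.0066), and with the mean of probes for Akap5 in Cap-F (0.019) and Cav1 in ODNcap-F (-0.035) against Ctrl-F. With 1 mouse left out, Cap-F against Ctrl-F ranged from -0.19 to 0.030 for Ager, from -0.065 to 0.071 for Hopx, from -0.22 to 0.12 for Emp2 and from -0.11 to 0.089 for Akap5. ODNcap-F against Ctrl-F ranged from -0.019 to 0.20 for Ager, -0.010 to 0.22 for Aqp5, -0.12 to 0.13 for Cav1, -0.058 to 0.28 for Emp2, -0.0024 to 0.21 for Akap5, -0.024 to 0.20 for Clic5 and -0.22 to 0.47 for Igfbp2. ODNcap-F against Cap-F ranged from -0.13 to 0.061 for Clic5 and from -0.053 to 0.098 for Vegfa.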
